A study of Mus musculus with 13 samples.

Results

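The enzymes that build and modify cell-surface sugars were followed across excitatory neurons of the mouse claustrum. All rows of the count tables whose gene symbol begins with B3gnt, B3gat, B3galt, B4galt, B4galnt, Galnt, Chst, Hs3st, Hs6st, Ndst, St3gal, St6gal or St8sia were taken, which gave 94 of the 23427 genes listed. Of these members, 79 were listed for all mice, 14 only for the mice with projection labels, and B4galnt2 only for the blindly sampled mouse. Detection was uneven: 20 members had a count in more than 50% of the cells kept, 19 had one in under 1%, and B3gnt8 had none.

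Cells were picked by hand from claustral microdissections of 4 mature male C57BL/6 mice and sequenced on 13 plates. In the blindly sampled mouse, rAAV2-retro-CAG-GFP injected into the anterior cingulate cortex guided the dissection, and cells were taken without regard to GFP. In projection mice 1 to 3, retrobeads, fluorescent particles carried back along axons, were placed in the lateral entorhinal cortex (LEC) and the retrosplenial cortex (RSC), and cells with a label for either target, or with none, were taken. Of 1112 cells, 1011 had at least 1 count of both Snap25, a gene of the synaptic release machinery, and Slc17a7, a vesicular glutamate transporter of cortical excitatory neurons. They were divided by 2 genes: 438 cells with at least 200 CPM of Synpr (CPM, counts scaled to a common total per cell) are called Synpr-high, 359 cells below that with at least 20 CPM of Slc30a3 are called Slc30a3-positive, and the 214 others are the remaining cells.

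Glycosyltransferases of the Golgi add single sugars to proteins and lipids. Galnt enzymes start O-linked chains with N-acetylgalactosamine (GalNAc), B3gnt, B3galt and B4galt enzymes lengthen chains, and St3gal, St6gal and St8sia enzymes cap them with sialic acid, also on gangliosides, the sialic acid-bearing glycolipids that are abundant in neurons. Chst, Hs3st, Hs6st and Ndst enzymes place sulfate on sugars, among them the long chains of keratan, chondroitin and heparan sulfate, which bind growth factors and guidance proteins. The sugars themselves were not measured.

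Depth and the makeup of the classes bear on every value. The authors sequenced 3 plates on a separate flow cell with another read length and do not name them. The blindly sampled mouse filled plates 1 to 3, so that it may have had that flow cell to itself. Its cells had a median of 26023 counts against 138535 to 154262 in projection mice 1 to 3. This mouse and any flow cell of its own cannot be told apart. Over the 4 mice, 7 core-like markers such as Gnb4 and Lxn summed to 5113 to 5872 CPM in Synpr-high cells, 529.7 to 932 CPM in Slc30a3-positive cells and 285 to 663 CPM in remaining cells. A set of 5 shell-like markers such as Nnat and Spon1 summed to 352 to 554 CPM in Synpr-high cells, 1828 to 3107 CPM in Slc30a3-positive cells and 1123 to 2746 CPM in remaining cells. For 9 layer 6-like markers such as Foxp2 and Rprm the sums were 30.6 to 74.0 CPM in Synpr-high cells, 318 to 546 CPM in Slc30a3-positive cells and 1101 to 3292 CPM in remaining cells, so that the remaining cells held a mixture. In Slc30a3-positive cells this sum was mostly Pcp4, at 378 CPM, while Foxp2 and Rprm averaged 0.559 and 7.82 CPM there and 41.4 and 178 CPM in remaining cells. Of other cell types, oligodendrocyte markers summed to 43.1 to 390.4 CPM in Synpr-high cells, 65.9 to 1032 CPM in Slc30a3-positive cells and 28.3 to 60.3 CPM in remaining cells, and inhibitory neuron markers to 0 to 143 CPM in Synpr-high cells, 0 to 3.77 CPM in Slc30a3-positive cells and 0 to 122 CPM in remaining cells. Markers of oligodendrocyte precursors, astrocytes, microglia and endothelium summed to at most 63.8, 4.09, 5.90 and 3.30 CPM. The part of these cells in the members' values was not tested. In a sum, fewer cells with a transcript and fewer transcripts per cell cannot be told apart.

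Promoter sequence is shown for 6 members on which the class comparisons turn and for which RefSeq lists a single start. Each line holds the 250 bases before the start in RefSeq's mouse assembly GRCm38.p6, 5′ to 3′ on the gene's strand, with CG pairs in capitals. The first 4 genes were higher in Synpr-high than in Slc30a3-positive cells, and the last 2 were lower.
Hs3st4, chr7:123982578-123982827, plus strand: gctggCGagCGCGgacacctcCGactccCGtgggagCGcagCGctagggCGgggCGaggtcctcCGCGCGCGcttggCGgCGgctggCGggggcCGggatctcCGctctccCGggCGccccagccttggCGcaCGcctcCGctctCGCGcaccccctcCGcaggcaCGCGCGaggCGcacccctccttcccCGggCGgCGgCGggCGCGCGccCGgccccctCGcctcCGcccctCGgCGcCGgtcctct
B3galtl, listed by RefSeq as B3glct, chr5:149677980-149678229, plus strand: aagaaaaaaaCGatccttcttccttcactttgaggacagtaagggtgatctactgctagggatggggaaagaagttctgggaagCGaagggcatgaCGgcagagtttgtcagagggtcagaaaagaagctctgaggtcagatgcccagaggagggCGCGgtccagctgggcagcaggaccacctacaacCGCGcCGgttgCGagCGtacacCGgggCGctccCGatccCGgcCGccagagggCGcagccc
Chst2, chr9:95407271-95407520, minus strand: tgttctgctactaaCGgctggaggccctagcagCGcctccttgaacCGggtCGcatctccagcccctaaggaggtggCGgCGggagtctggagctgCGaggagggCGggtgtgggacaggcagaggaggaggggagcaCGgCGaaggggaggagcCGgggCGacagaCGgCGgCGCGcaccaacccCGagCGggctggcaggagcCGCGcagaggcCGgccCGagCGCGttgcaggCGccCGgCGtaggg
Chst1, chr2:92600867-92601116, plus strand: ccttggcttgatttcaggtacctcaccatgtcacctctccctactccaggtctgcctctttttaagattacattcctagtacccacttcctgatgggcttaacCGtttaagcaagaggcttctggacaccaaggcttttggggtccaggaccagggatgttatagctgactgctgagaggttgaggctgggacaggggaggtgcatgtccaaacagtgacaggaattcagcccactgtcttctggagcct
B3gnt5, chr16:19759984-19760233, plus strand: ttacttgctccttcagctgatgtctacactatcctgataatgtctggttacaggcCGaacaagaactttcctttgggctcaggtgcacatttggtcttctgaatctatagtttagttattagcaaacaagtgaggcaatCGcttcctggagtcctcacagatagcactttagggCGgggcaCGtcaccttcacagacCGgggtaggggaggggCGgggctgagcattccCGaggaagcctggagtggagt
Chst8, chr7:34812712-34812961, minus strand: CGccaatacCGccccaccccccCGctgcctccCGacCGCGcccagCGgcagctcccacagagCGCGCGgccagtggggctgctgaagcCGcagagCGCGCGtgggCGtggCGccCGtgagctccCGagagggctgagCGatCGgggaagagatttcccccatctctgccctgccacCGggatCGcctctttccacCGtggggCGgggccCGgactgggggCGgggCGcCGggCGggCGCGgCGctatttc
The windows of Hs3st4 and Chst8 held 43 and 32 CG pairs, those of Chst2, B3galtl and B3gnt5 held 27, 16 and 7, and that of Chst1 held 1, against a median of 6 over 32851 RefSeq windows of this length. On either strand, GGGCGG stood in the windows of Hs3st4, Chst2, B3gnt5 and Chst8 and in 32.7% of all windows. CCAAT stood in that of Chst8 and in 33.8% of all, and TATAAA in none of the 6 and in 12.4% of all.

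To compare the classes, counts were summed per mouse and class, scaled by TMM and tested with edgeR's quasi-likelihood test, with mouse as a blocking term. P-values were adjusted by Benjamini-Hochberg over all genes tested, and the threshold was 0.05. Levels are given as TMM-scaled CPM and compared between groups of cells, not between genes. The filter on low counts kept 69 of the 94 members, and the 25 others had at most 123 counts each and were not tested. Some members kept had next to no count in a class: B3gnt5, Galnt12, Chst5 and Chst9 in Synpr-high and Chst4 in remaining cells. These passed the filter only through other classes, so that a call could show that class only as the lower one.

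Between Synpr-high and Slc30a3-positive cells, 20 of 69 tested members passed, 8 higher and 12 lower in Synpr-high cells, where the same test called 11.2% of all 13104 genes. The median log2 fold change was -0.06 over the tested members and 0.01 over all genes. The calls were spread over the roles, with 0 higher and 4 lower of 11 tested members that start O-GalNAc chains, 1 higher and 3 lower of 13 of the families that extend chains and 1 higher and 2 lower of 11 of glycolipid synthesis. The one higher member of the chain-extending families was B3galtl, placed there by its symbol, which adds glucose to fucose. Sialylation of N- and O-glycans had 1 higher and 1 lower of 7, keratan sulfate and GlcNAc sulfation 2 higher and 0 lower of 4, and terminal GalNAc and its sulfation 0 higher and 2 lower of 3. The HNK-1 epitope and the proteoglycan linker each had 1 higher of 3, and heparan sulfate 3-O sulfation 1 higher of 4. By edgeR, none of 3 members of chondroitin sulfation, 2 of heparan 6-O sulfation, 3 of heparan N-sulfation and 2 of polysialic acid synthesis passed, with 0, 1, 1 and 0 at an unadjusted p under 0.05. Of all 13104 genes, 2938 had an unadjusted p under 0.05 in this comparison.

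**Figure D1:**
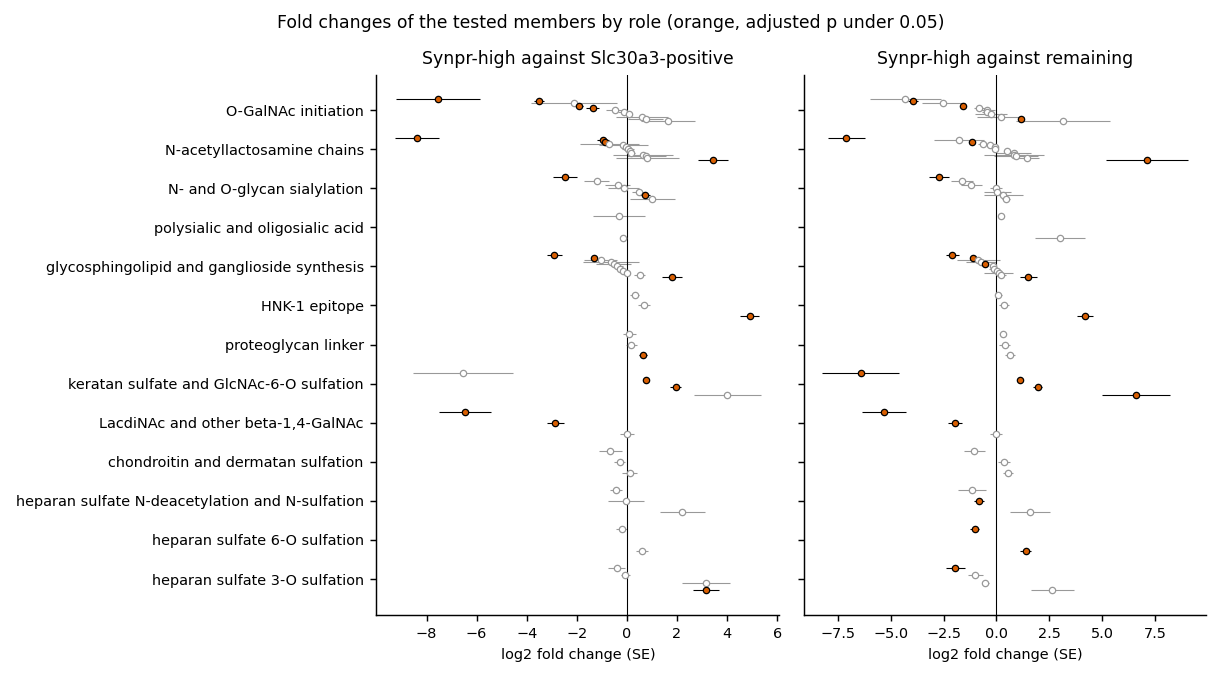
Log2 fold changes of the 69 tested members, grouped by role, for Synpr-high against Slc30a3-positive (left) and remaining cells (right), with SE as bars on the horizontal axis; values right of 0 are higher in Synpr-high cells, and orange marks members past the threshold. Orange points lie on both sides of 0, 8 higher and 12 lower against Slc30a3-positive cells and 8 higher and 14 lower against remaining cells.

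B3gat2, which adds the glucuronic acid of the HNK-1 epitope, a sulfated sugar of neural adhesion molecules, was higher in Synpr-high cells of every mouse. Its level there was 144, 133, 128 and 125 CPM, in the order blindly sampled mouse and projection mice 1, 2 and 3, which is kept throughout. Slc30a3-positive cells gave 3.04, 5.84, 4.69 and 3.04 CPM and remaining cells 13.2, 4.54, 3.30 and 11.4 CPM, so that no Synpr-high value came near those of the other classes. The log2 fold change was 4.91 ± 0.38 (SE) against Slc30a3-positive cells (adjusted p = 9.05e-06) and 4.18 ± 0.38 against remaining cells (adjusted p = 2.06e-05). Most Synpr-high cells carried the transcript. With each cell thinned to 20000 counts and shallower cells left out, a count of B3gat2 was found in 69.7% of Synpr-high cells (exact 95% interval 65.0 to 74.1%, n = 406), 4.23% (2.33 to 6.99%) of Slc30a3-positive cells (n = 331) and 5.79% (2.93 to 10.1%) of remaining cells (n = 190). Without thinning the shares were 87.4%, 13.1% and 11.7%. These intervals, and all others on shares, cover counting error only. B3gat1, a related glucuronyltransferase, averaged 25.5 ± 9.41 and 15.4 ± 3.68 CPM in Synpr-high and Slc30a3-positive cells, and Chst10, which adds the sulfate, 60.0 ± 9.38 and 48.9 ± 13.5 CPM; neither passed (adjusted p = 0.0779 and 0.32). Exons of B3gat2 overlap those of Smap1 on the opposite strand, those of Hs3st4, Galntl1, Galnt14, Hs6st1, St6gal1 and St8sia5 overlap opposite-strand noncoding genes, and the strand setting of the counting is not given in the sources used here.

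**Figure D2:**
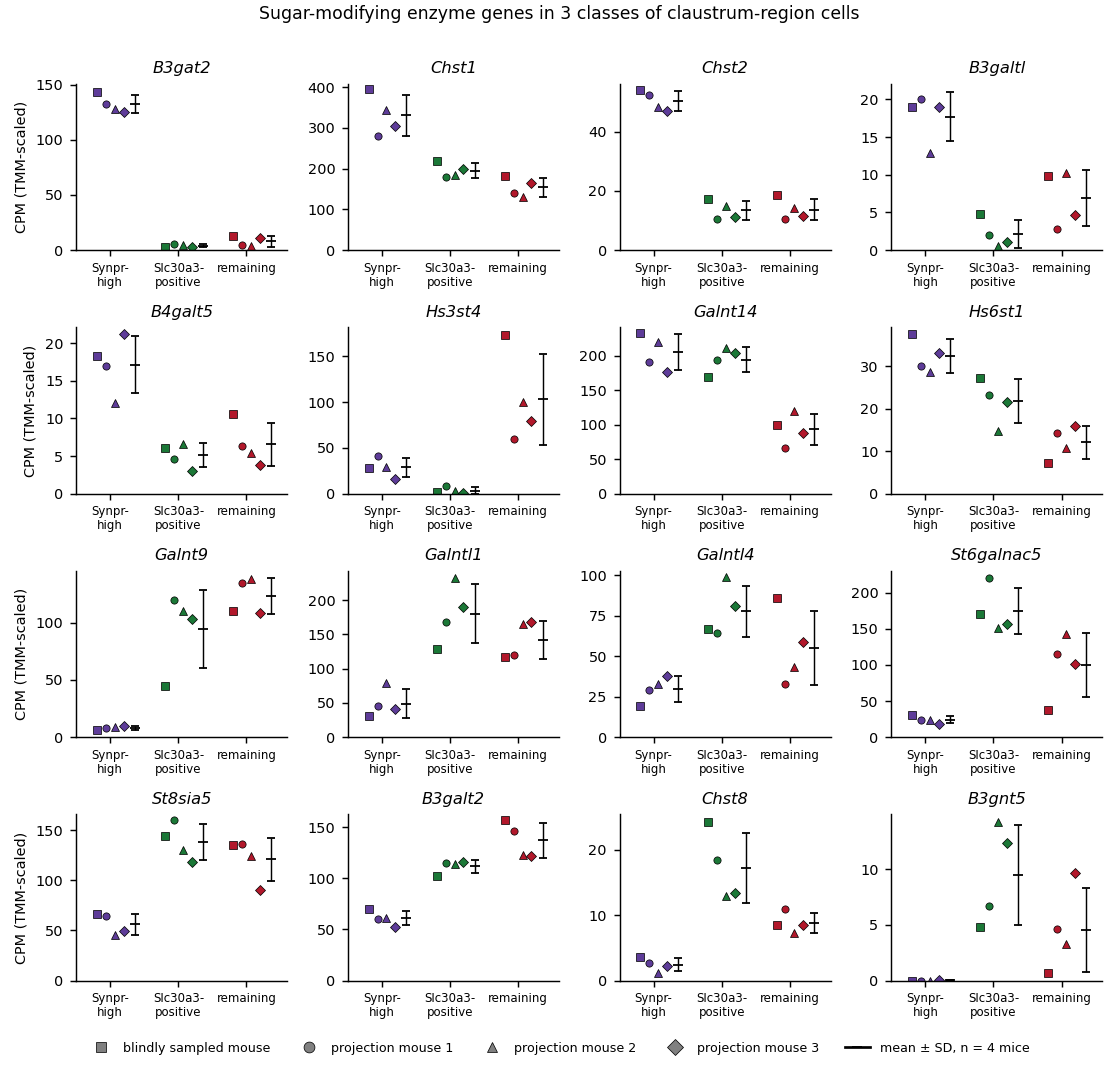
TMM-scaled CPM (vertical axes, each from 0) of 16 members in sums per mouse and class, with 1 symbol per mouse and the mean ± SD over 4 mice. B3gat2, Chst1 and Chst2 are highest in Synpr-high cells, Galnt9, Galntl1 and St6galnac5 are lowest there, and Hs3st4 is highest in remaining and lowest in Slc30a3-positive cells.

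Sulfotransferases of keratan sulfate and of GlcNAc gave 2 higher and 0 lower of 4 tested members against Slc30a3-positive cells and 3 higher and 1 lower of 4 against remaining cells. Chst1, which sulfates the galactose of keratan sulfate, measured 394, 281, 344 and 303 CPM in Synpr-high, 219, 179, 183 and 199 CPM in Slc30a3-positive and 181, 140.2, 129 and 166 CPM in remaining cells. The Synpr-high values lay above all others, by 0.75 ± 0.09 and 1.10 ± 0.10 on the log2 scale (adjusted p = 0.000317 and 1.59e-05). Chst2, which sulfates GlcNAc, averaged 50.3 ± 3.29 CPM (SD, n = 4 mice) in Synpr-high cells against 13.5 ± 3.22 CPM and 13.6 ± 3.55 CPM in the other classes, with log2 fold changes of 1.94 and 1.94 (adjusted p = 8.08e-05 and 7.49e-05). Related GlcNAc sulfotransferases were counted in few cells and were called only against remaining cells. Chst4 stood at 2.45, 4.91, 3.44 and 3.86 CPM in Synpr-high and 0, 0, 0 and 0.137 CPM in remaining cells (adjusted p = 0.017). Its 245 counts in 26 Synpr-high cells against 1 in remaining cells gave a ratio of 91.8 (95% interval from counting alone, 16.3 to 3641). This interval, and all others from counting alone, takes counts of the same cell as independent. As the counts came from few cells, such intervals are too narrow and do not cover the spread between cells or mice. Chst5 was lower in Synpr-high cells, at 0.0410 ± 0.0820 against 3.52 ± 3.29 CPM (adjusted p = 0.0443), a ratio of 131 (95% interval from counting alone, 35.2 to 1095) from 98 counts in 7 remaining cells. The groups of Chst5 overlapped at the blindly sampled mouse, whose table does not list the gene, so that its 0 was filled in and not measured.

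The enzymes that start O-GalNAc chains were lower in Synpr-high than in Slc30a3-positive cells in all 4 of their calls. Galnt9, a form found mainly in brain, stood at 6.13, 7.83, 8.53 and 10 CPM in Synpr-high, 45.1, 120.1, 110.0 and 103 CPM in Slc30a3-positive and 111, 135, 138 and 109 CPM in remaining cells. All Synpr-high values lay below the others, and the blindly sampled mouse was the low one among Slc30a3-positive cells. The log2 fold changes were -3.51 ± 0.22 and -3.94 ± 0.22 (adjusted p = 2.13e-06 and 9.65e-07). Galntl1, listed by RefSeq as Galnt16, averaged 49.0 ± 20.7 CPM against 179.7 ± 43.0 and 142 ± 27.8 CPM in the other classes and passed against both, at -1.91 and -1.58 on the log2 scale. Galntl4, listed by RefSeq as Galnt18, averaged 29.6 ± 7.94 against 77.7 ± 15.7 CPM in Slc30a3-positive cells (-1.36, adjusted p = 0.00607) and did not pass against remaining cells (55.0 ± 23.0 CPM). Galnt12 was sparse, at 0, 0, 0 and 0.0728 CPM in Synpr-high and 2.17, 4.48, 1.92 and 1.49 CPM in Slc30a3-positive cells (log2 fold change -7.53, adjusted p = 0.0117). The groups did not overlap, but its counts were 2 in 1 Synpr-high cell and 111 in 12 Slc30a3-positive cells, a ratio of 72.6 (95% interval from counting alone, 19.6 to 607), and 1 cell gave 40.5% of the latter.

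Galnt14, of the same family, followed another order. Its levels of 233, 191, 220.3 and 177 CPM in Synpr-high cells overlapped the 169, 194, 211 and 204 CPM of Slc30a3-positive cells, while remaining cells gave 100.1, 66.1, 119 and 87.9 CPM. Remaining cells were thus lowest, by a log2 fold change of 1.16 ± 0.14 for Synpr-high (adjusted p = 0.000203) and 1.09 ± 0.14 for Slc30a3-positive cells (adjusted p = 0.00268).

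Glycolipid enzymes changed in both directions. B4galt5, which makes lactosylceramide, an early step toward gangliosides, was higher in Synpr-high cells, at 17.2 ± 3.84 CPM against 5.10 ± 1.60 and 6.55 ± 2.85 CPM (log2 fold changes 1.80 and 1.51, adjusted p = 0.0105 and 0.0238). The related B4galt6, of the same role, passed in no class comparison by edgeR. A thinned count of B4galt6 was found in 78.3% of Synpr-high, 77.6% of Slc30a3-positive and 80% of remaining cells. St6galnac5, which adds sialic acid to complex gangliosides, was lower there, at 30.0, 23.5, 23.6 and 18.4 CPM against 171, 220.4, 151 and 157 CPM in Slc30a3-positive and 38.2, 115, 144 and 102 CPM in remaining cells. No Synpr-high value reached the other classes, and the lowest of the remaining cells was the blindly sampled mouse. The log2 fold changes of St6galnac5 were -2.90 ± 0.30 and -2.08 ± 0.30 (adjusted p = 7.21e-05 and 0.000678); its exons overlap those of Pigk on the opposite strand. St8sia5, which adds further sialic acid to gangliosides, averaged 56.2 ± 10.5 CPM against 138 ± 18.1 and 121 ± 21.4 CPM (-1.31 and -1.11 on the log2 scale, adjusted p = 2.96e-05 and 8.32e-05). St3gal5, which makes GM3, the precursor of most gangliosides, passed only against remaining cells, by -0.54 ± 0.12 (adjusted p = 0.00875). Its levels of 176, 71.1, 80.3 and 67.8 CPM in Synpr-high and 321, 106, 100.4 and 90.2 CPM in remaining cells overlapped, with the blindly sampled mouse far above the others in both and Synpr-high cells lower within each mouse; with no term for the mouse its adjusted p was 0.558.

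Among chain-extending enzymes, B3gnt5, which starts the lacto-series of glycolipids, was nearly absent from the counts of Synpr-high cells. Its values were 0, 0, 0 and 0.0728 CPM there, 4.77, 6.71, 14.2 and 12.3 CPM in Slc30a3-positive cells and 0.658, 4.65, 3.30 and 9.61 CPM in remaining cells, without overlap in either comparison (adjusted p = 9.08e-05 and 0.000226). Its 2 counts in Synpr-high cells against 551 in Slc30a3-positive cells gave a ratio of 360.1 (95% interval from counting alone, 99.2 to 2981). Few cells of any class carried it: a thinned count was found in 9.37% (6.45 to 13%) of Slc30a3-positive and 4.21% (1.84 to 8.13%) of remaining cells, and in 0 of 406 Synpr-high cells, which allows a share of up to 0.739% (taken as 3 of 406); before thinning, 2 Synpr-high cells had a count (0.457%). B3galt2 and B3galt1, which add galactose to chain ends, averaged 60.9 ± 7.07 and 20.8 ± 4.24 CPM in Synpr-high against 112 ± 6.33 and 40.7 ± 8.29 CPM in Slc30a3-positive cells. Their log2 fold changes were -0.89 and -0.97 (adjusted p = 0.000574 and 0.0203), and only B3galt2 passed also against remaining cells (-1.17, adjusted p = 6.91e-05). Exons of B3galt2 overlap those of Cdc73 on the opposite strand. B3galtl, which despite its symbol adds glucose to O-linked fucose on thrombospondin repeats, was higher in Synpr-high cells, at 19.0, 20.1, 12.9 and 19.0 CPM against 4.77, 2.04, 0.529 and 1.06 CPM in Slc30a3-positive cells. The groups did not overlap (3.44 ± 0.60, adjusted p = 0.00308), and the 6.91 ± 3.72 CPM of remaining cells did not differ past the threshold. B3gnt3, a GlcNAc-transferase, gave 1.53, 0.717, 3.28 and 1.06 CPM in Synpr-high cells and no count in remaining cells (adjusted p = 0.0408). Its 87 counts came from 8 of 438 Synpr-high cells (1.83%), against 0 of 214 remaining cells, which allows a share of up to 1.4% (3 of 214), and it passed the filter on low counts only through the other classes.

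Of the sialyltransferases of N- and O-glycans, St6gal1, which adds alpha-2,6-linked sialic acid to N-glycans, averaged 1.71 ± 0.972 CPM in Synpr-high, 9.72 ± 1.54 CPM in Slc30a3-positive and 11.5 ± 2.38 CPM in remaining cells (log2 fold changes -2.48 and -2.74, adjusted p = 0.00462 and 0.00258). St6galnac4, which sialylates O-glycans, was higher in Synpr-high than in Slc30a3-positive cells, at 61.5 ± 12 against 37.2 ± 4.05 CPM (0.72, adjusted p = 0.0264), and passed under 11 of 19 other settings. B3gat3, which completes the linker that joins glycosaminoglycans to proteins, was higher too, at 85.3 ± 7.75 against 56.2 ± 13.8 CPM (0.63, adjusted p = 0.0194), and passed under 14 of 19 other settings.

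Chst8 and Chst9, which sulfate terminal GalNAc on glycoproteins, were both low in Synpr-high cells. Chst8 averaged 2.45 ± 1.01 CPM there against 17.2 ± 5.32 and 8.84 ± 1.56 CPM (log2 fold changes -2.85 and -1.96, adjusted p = 0.000267 and 0.00287). Chst9 gave 0, 0.0551, 0 and 0.255 CPM in Synpr-high, 0, 6.32, 10.9 and 15.7 CPM in Slc30a3-positive and 1.32, 3.63, 1.82 and 5.08 CPM in remaining cells. The blindly sampled mouse had no count of Chst9 in Synpr-high or Slc30a3-positive cells, so that these groups overlapped, while Synpr-high and remaining cells did not (adjusted p = 0.00187 and 0.00543). Of 331 thinned Slc30a3-positive cells, 30 had a count of Chst9 and 31 one of B3gnt5, and 6 had both.

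Among heparan sulfate enzymes, Hs3st4, which adds the rare 3-O sulfate, was the one member called in all 3 class comparisons. Remaining cells gave 173, 59.3, 101 and 79.5 CPM, Synpr-high cells 28.2, 41.2, 28.7 and 16.3 CPM and Slc30a3-positive cells 1.30, 8.76, 2.58 and 0.723 CPM, and no class overlapped another. The log2 fold change was 3.17 ± 0.51 for Synpr-high against Slc30a3-positive cells (adjusted p = 0.00179), -1.95 ± 0.45 for Synpr-high against remaining cells (adjusted p = 0.0143) and -5.12 ± 0.55 for Slc30a3-positive against remaining cells (adjusted p = 0.00112). The second of these lost its call when the mouse was left out of the model (adjusted p = 0.0577). In thinned cells, Hs3st4 was counted in 39.5% (32.5 to 46.8%) of remaining, 20% (16.2 to 24.2%) of Synpr-high and 2.42% (1.05 to 4.71%) of Slc30a3-positive cells.

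Within the remaining cells, Hs3st4 went with the layer 6-like genes Ctgf, Foxp2, Sla and Rprm, taken as a set. The other layer 6-like markers, Pcp4, Fezf2, Tle4, Syt6 and Pitpnc1, were not used here. Of 107 thinned remaining cells with a count of Ctgf, Foxp2, Sla or Rprm, 73 had one of Hs3st4 (68.2%, 58.5 to 76.9%), and of 83 without, 2 had one (2.41%, 0.293 to 8.43%). Over the 4 mice these shares ran from 58.3 to 87.5% and from 0 to 3.45%, without overlap. Galnt14 was split the other way, 31.8% against 69.9%, except in the blindly sampled mouse, where 83.3% of 24 cells with such a gene and 37.5% of 8 without had a count. Galnt9 gave 63.6% against 39.8% and Hs6st2 57.9% against 59.0%. This split was chosen after the class values were seen and carries no test.

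**Figure D3:**
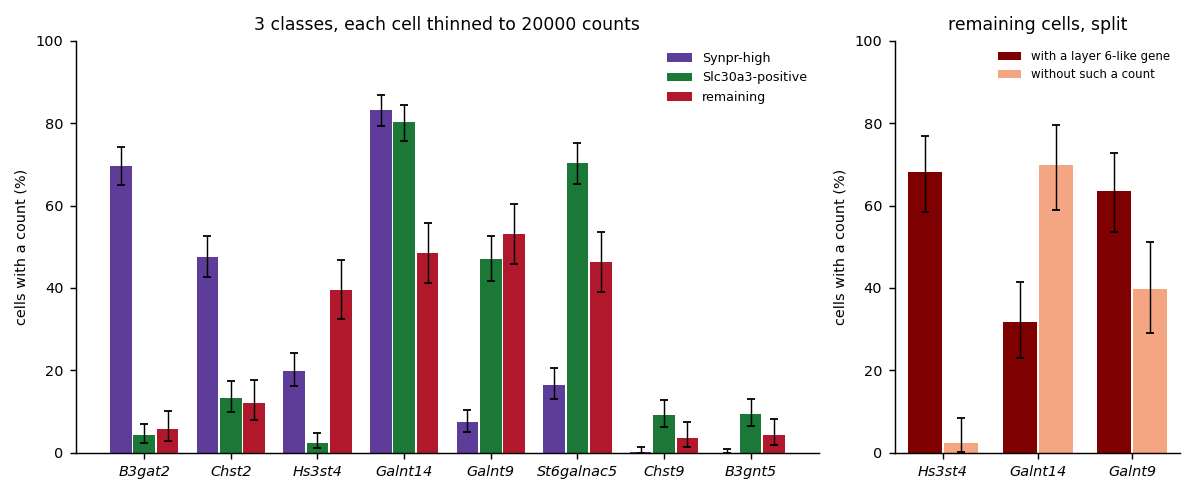
Share of cells with a count (vertical axes, percent, with exact 95% intervals) after thinning to 20000 counts, for 8 members in the 3 classes (left) and for 3 members in remaining cells with and without a count of Ctgf, Foxp2, Sla or Rprm (right). Hs3st4 is counted in 68.2% of remaining cells with such a gene and in 2.41% of those without.

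The other calls among heparan sulfate members were all against remaining cells. Hs6st1, a 6-O-sulfotransferase, was higher in Synpr-high cells, at 32.4 ± 4.0 against 12.1 ± 3.89 CPM (1.37 on the log2 scale, adjusted p = 0.0044), and the related Hs6st2 was lower, at 55.1 ± 10.7 against 112 ± 26.6 CPM (-1.03, adjusted p = 0.00777). Ndst1, which N-deacetylates and N-sulfates the chain, was lower, at 17.3 ± 4.14 against 30.8 ± 7.52 CPM with overlapping groups (-0.81, adjusted p = 0.0405), and passed under 10 of 19 other settings.

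Counted as a whole, 22 of 69 tested members passed between Synpr-high and remaining cells, 8 higher and 14 lower, where 13.9% of all genes were called. The median log2 fold change was -0.08 over the tested members and 0.03 over all genes. Between Slc30a3-positive and remaining cells, Galnt14 and Hs3st4 were the 2 of 69 members to pass, where 2.04% of all genes were called. An unadjusted p under 0.05 was found for 22 of the 69 members and for 1832 of all 13104 genes. The 3 comparisons share their sums and are not independent. Among cells without a projection label alone, 12 members passed between Synpr-high and Slc30a3-positive cells and 13 between Synpr-high and remaining cells, where 6.4% and 9.16% of all 11539 genes were called.

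Other enzymes of these pathways were read from 5 lists of 53 genes, of which 49 were tested. Between Synpr-high and Slc30a3-positive cells 7 passed, 3 higher and 4 lower (14.3%, against 11.2% of all genes), and between Synpr-high and remaining cells 8, 4 higher and 4 lower (16.3%, against 13.9%). Ext1, a polymerase of the heparan sulfate chain, averaged 6.18 CPM in Synpr-high, 69.4 CPM in Slc30a3-positive and 60.0 CPM in remaining cells (-3.47 ± 0.18 and -3.25 ± 0.18 on the log2 scale, adjusted p = 6.46e-07 and 9.65e-07). Sulf1, which removes 6-O sulfate outside the cell, was lower than in Slc30a3-positive cells (-1.42, adjusted p = 0.00769), and the related Sulf2 was lower than in remaining cells (-2.23, adjusted p = 0.00492). Gcnt2 and Mgat5b, which branch glycans, were higher than in Slc30a3-positive cells by 2.31 and 1.51 (log2, adjusted p = 0.0028 and 0.0242). Mgat3, which adds the bisecting GlcNAc of N-glycans, was lower by the same comparison (-0.56, adjusted p = 0.0212, in 4 of 4 mice). Csgalnact1, 1 of 8 tested genes of the chondroitin and dermatan chain list, was lower than in Slc30a3-positive and remaining cells. Its log2 fold changes were -1.23 and -0.82 (adjusted p = 0.00252 and 0.0228). Of 9 tested genes that make or carry the sialic acid and sulfate donors, none passed by edgeR in the 3 class comparisons, with 1 at an unadjusted p under 0.05 in each. Of all 13104 genes, 2938, 3315 and 1832 had an unadjusted p under 0.05 there, in the order of the comparisons above.

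Projection labels were compared next, to ask whether members differ between cells that reach the RSC and cells that reach the LEC. Of 247 RSC-labeled cells, 213 were Synpr-high and 22 Slc30a3-positive, and of 286 LEC-labeled cells, 45 were Synpr-high and 183 Slc30a3-positive, so that the labels differed in their mix of classes. Each label of a mouse was on plates of its own, except on plate 12 of projection mouse 3, so that label and plate cannot otherwise be told apart. Sums were made per label in the 3 projection mice. Inhibitory neuron markers summed to 6.91 to 200 CPM in RSC-labeled and 0.162 to 0.886 CPM in LEC-labeled cells, where Gad1, Gad2 and Sst were at 0. Oligodendrocyte markers summed to 49.4 to 946 and 101 to 362 CPM. The part of oligodendrocyte markers in the label results was not tested.

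Between RSC-labeled and LEC-labeled cells, 12 of 74 tested members passed, 3 higher and 9 lower in RSC-labeled cells, where 3.86% of all 13976 genes were called. The median log2 fold change was -0.01 over the tested members and -0.00023 over all genes. B3gat2 (122, 108 and 113 against 50.8, 27 and 28.6 CPM), Chst2 (47.6 ± 3.02 against 20.5 ± 4.28 CPM) and Chst1 (297 ± 22.1 against 199.6 ± 9.41 CPM) were higher in RSC-labeled cells. Their log2 fold changes were 1.69 ± 0.38, 1.22 ± 0.26 and 0.57 ± 0.11 (adjusted p = 0.0428, 0.0355 and 0.0295). Chst9, B3gnt5, St3gal1, Galnt9, Chst8, St6galnac5, Galntl1, Galntl4 and Hs6st2 were lower. On plate 12 alone, with 34 RSC-labeled and 44 LEC-labeled cells of 1 mouse, all 12 lay on the same side. These cells are part of the sums of projection mouse 3 from which the 12 were called, so that this is no independent check. Without the 3 RSC-labeled cells that counted both Gad1 and Gad2, a setting chosen after seeing the data, the same 12 members passed. The count fell to 8, 3 and 2 members without projection mouse 1, 2 or 3.

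The largest fold changes were in genes with next to no count in RSC-labeled cells. Chst9 had none there and 2.32, 8.35 and 13.6 CPM in LEC-labeled cells of projection mice 1 to 3 (adjusted p = 0.0106). It was counted in 33 of 286 LEC-labeled cells (11.5%), against 0 of 247 RSC-labeled cells, which allows a share of up to 1.21% (3 of 247). B3gnt5 gave 0, 0 and 0.0510 CPM in RSC-labeled and 7.43, 8.11 and 13.5 CPM in LEC-labeled cells (adjusted p = 0.014), a ratio of 415 (95% interval from counting alone, 74.2 to 16427). The counts of B3gnt5 came from 40 LEC-labeled cells. Chst9 and B3gnt5 passed the filter on low counts only through groups other than RSC-labeled cells. A call against RSC-labeled cells could therefore go in this direction only. St3gal1, which caps the simplest O-glycans with sialic acid, gave 3.47, 1.87 and 2.35 against 7.36, 17.7 and 17.7 CPM (-2.45 ± 0.49 on the log2 scale, adjusted p = 0.0301). Its groups did not overlap, and projection mouse 1 had the lowest LEC value.

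Galnt9, St6galnac5 and Chst8 separated the labels in every mouse. Galnt9 gave 23.0, 25.3 and 16.1 CPM in RSC-labeled and 90.5, 137 and 103 CPM in LEC-labeled cells (-2.40 ± 0.28, adjusted p = 0.00334). St6galnac5 gave 42.4, 42.3 and 34.0 against 159.9, 117 and 125 CPM (-1.77 ± 0.19, adjusted p = 0.00299), and Chst8 2.62, 1.73 and 2.6 against 14.4, 10.9 and 10.2 CPM (-2.34 ± 0.39, adjusted p = 0.013). In each of them every RSC value was below every LEC value. Galntl1, Galntl4 and Hs6st2 had log2 fold changes of -1.65, -1.08 and -0.85 (adjusted p = 0.00283, 0.012 and 0.0317). On plate 12 alone, the RSC and LEC values were 24.5 and 76.9 CPM for Galnt9, 40.0 and 131 CPM for St6galnac5, and 133 and 39.1 CPM for B3gat2. These CPM were not scaled by TMM, unlike the sums per mouse.

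**Figure D4:**
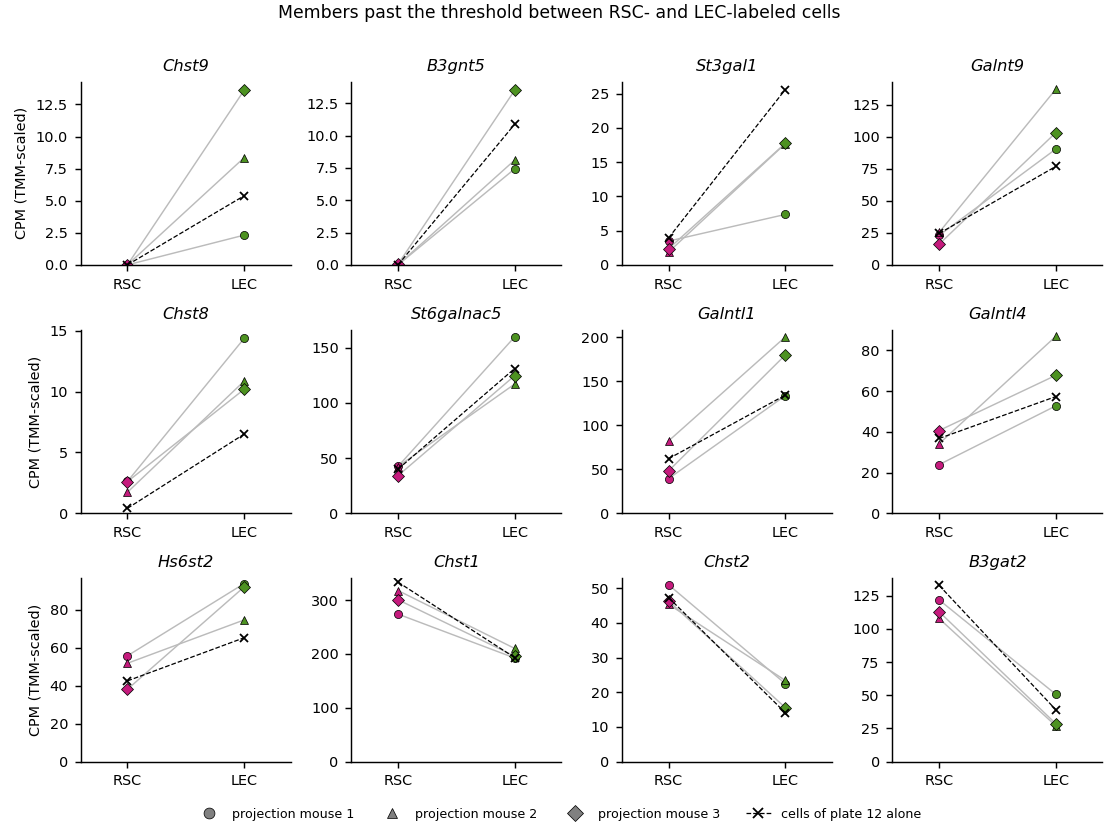
TMM-scaled CPM (vertical axes, each from 0) of the 12 members past the threshold between RSC-labeled and LEC-labeled cells. Symbols joined by grey lines are the sums of projection mice 1 to 3. Crosses joined by a dashed line are the cells of plate 12 alone, part of projection mouse 3, in CPM without TMM scaling. In all 12 panels the lines of the 3 mice and of plate 12 run in the same direction.

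Within Synpr-high cells, none of 64 tested members passed between RSC-labeled and LEC-labeled cells by edgeR, where 0% of all 12328 genes were called. An unadjusted p under 0.05 by edgeR was found for 4 members and for 382 of all genes. DESeq2 called 3 members and 196 of all genes, and limma 0 of either. B3gat2 gave 139, 134 and 117 CPM in RSC-labeled and 145, 145 and 152 CPM in LEC-labeled Synpr-high cells, a log2 difference of -0.17 ± 0.71. St6galnac5 averaged 19.8 ± 2.32 and 28.2 ± 6.56 CPM there (SD, n = 3 mice), and 186 ± 25.2 and 179 ± 58.2 CPM in Slc30a3-positive cells. Within Slc30a3-positive cells, 1 of 64 members passed, where 0.162% of all genes were called. It was Hs6st2, at 17.8, 7.46 and 17.9 CPM in RSC-labeled and 79.8, 69.4 and 97.8 CPM in LEC-labeled cells (-2.57 ± 0.40 on the log2 scale, adjusted p = 0.0396). The groups did not overlap, but the RSC-labeled cells were 22, and the call was lost when any 1 projection mouse was left out. In this comparison the median of all genes was -0.17 by edgeR and 0 by DESeq2, and the change of Hs6st2 was larger than this shift. For a difference of the label effect between the classes, 0 of 64 members passed by edgeR, with 6 at an unadjusted p under 0.05 and 2 called by DESeq2. Of all 12328 genes, edgeR called 4 (0.0324%), and 1071 had an unadjusted p under 0.05. The count of DESeq2 over all genes for this difference was not taken, so that its 2 calls have no background. Hs6st2 had a difference of 2.69 ± 0.54 (log2, adjusted p = 0.227).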

How the data were processed

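Single cells of 4 mice were sequenced on 13 plates with a barcoded 3′-tag protocol. Trimming, assignment of reads to cell and molecule barcodes, alignment by STAR and counting were done by the authors before deposit. Whether the counts are of reads or of molecules is not given in the sources used here. The deposited totals per cell are of the size that the authors report as reads per cell. The submitters' notes name the build NCBIM37 and Seurat, and the counter, annotation and strand setting are not given in the sources used here. The deposited values are raw counts per gene and cell, in separate tables for the mouse sampled blindly and the mice with retrobeads; a gene absent from a table was set to 0 there. The members, the gene lists and the cell gates were chosen with earlier results of these data known.

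Of 1112 cells, 27 without a count of Snap25 and 74 more without one of Slc17a7 were left out. No doublet caller was run, and 4 kept cells counted Gad1 together with Gad2. Each class of a mouse was summed (1557282 to 27601436 counts per sum; at least 5 cells). The sums were tested with edgeR 4.0.16 (R 4.3.3): TMM, filterByExpr, quasi-likelihood test, Benjamini-Hochberg adjustment over all genes, the mouse as a block. The block follows from sums of 1 animal. In the class sums, deviations of sums of the same mouse correlated with a median of 0.19 (12 pairs) and other pairs with -0.08. In the label sums these medians were 0.045 and -0.027, and in the sums by class and label 0.031 and -0.014. DESeq2 1.42.0, limma 3.58.1 on log2(CPM + 1) of per-cell means, other size factors, filters, gates and cell sets, thinning, and leaving out each mouse were alternatives. For Synpr-high against Slc30a3-positive cells and for RSC against LEC, the fit was run on simulated sums. These held no difference between mice beyond depth, so that they could not test the mouse block. The fits within classes were not simulated. Shares of cells were taken after thinning each cell to 20000 counts, which left 927 cells and dropped 67 of the blindly sampled mouse and 17 of the others, with exact 95% binomial intervals (scipy 1.17.1).

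Members past the threshold in a class comparison or between labels are named; in each comparison, the 6 with the largest fold change that moved the same way in every mouse are given per mouse. Symbols of 88 members are current in RefSeq and 6 are older synonyms, of which B3gnt1 fits more than 1 gene. Exon overlaps were read from GENCODE M21, whose build differs from that of the files, so only gene names were used.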

Additional observations from a re-analysis of the deposited data

Results flagged for a closer look

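Of 38 groups of 4 mice checked for the members given per mouse, 6 held a mouse set apart from the other 3 by Dixon's test, which flags about 1 in 20 groups by chance where values are continuous; that rate does not hold for groups with counts in a single mouse, which are always set apart. Projection mouse 2 was low for B3galtl in Synpr-high cells, at 12.9 CPM against 19.0 to 20.1 CPM in the others, and high for Chst4 in Slc30a3-positive cells, at 1.72 CPM against 0 to 0.145 CPM. Projection mouse 3 was the only mouse with counts of B3gnt5 (0.0728 CPM) and of Galnt12 (0.0728 CPM) in Synpr-high cells, and the only one with a count of Chst4 in remaining cells (0.137 CPM). The same mouse was high for Galnt12 in remaining cells, at 3.16 CPM against 0 to 0.165 CPM. Apart from B3galtl, these genes were counted in few cells.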

How the results depend on the processing

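No member called in any comparison changed direction under any alternative run in which it was tested. Not every called member was tested in every run. Without the mouse as a block, 18, 19, 2, 12, 0 and 1 members passed in the order Synpr-high against Slc30a3-positive, Synpr-high against remaining, Slc30a3-positive against remaining, RSC against LEC, and RSC against LEC within Synpr-high and within Slc30a3-positive cells; B3gat3, St6galnac4, and, against remaining cells, Hs3st4, Ndst1 and St3gal5 lost their calls. Leaving out each mouse gave 15 to 19, 16 to 21, 2 to 2, 2 to 8, 0 to 0 and 0 to 0 members in the same order. Galnt12 lost its call without any 1 of the 4 mice, B3gat3 and St6galnac4 without any 1 projection mouse, Ndst1 without any 1 mouse, and Hs3st4 against remaining cells without projection mouse 2, projection mouse 3 or the blindly sampled one. B3galt1 lost its call without the blindly sampled mouse or projection mouse 1 or 3, B4galt5 without projection mouse 1 or 3 (against remaining cells also without the blindly sampled one), and St3gal5 without the blindly sampled one. Against remaining cells, Chst4 and Chst5 lost theirs without projection mouse 1 or 3 or the blindly sampled one, and B3gnt3 without projection mouse 2 or 3 or the blindly sampled one. Between labels, St6galnac5 and Galntl1 passed without each mouse, and Galnt9 lost its call only without projection mouse 3, B3gat2, B3gnt5, Chst9 and St3gal1 without projection mouse 2 or 3, and Chst1, Chst2, Chst8, Galntl4 and Hs6st2 without any 1. Only cells without a label gave 12 and 13 members in the first 2 comparisons. In these comparisons 20 and 22 members were called in the main runs. Of them, 15 and 13 kept their calls in sums per plate with the plate as a block, and 4 and 6 lost them. With thinning, 15 and 16 kept their calls and 3 and 2 lost them. The others were not tested in those runs. Between Slc30a3-positive and remaining cells, DESeq2 gave 9, limma 4, sums per plate with the plate as a block 4 and leaving out cells near the cuts 5. The last of these settings was chosen after seeing the data. DESeq2 gave 20 between labels, 3 within Synpr-high and 4 within Slc30a3-positive cells, where limma gave 3 and thinning, an Slc30a3 cut of 50 CPM and leaving out plate 12 (added after seeing the data) gave 0, 0 and 0. The cause was not tested.

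Counts over all genes moved by more than 1.5 times as follows. Without the block they were 879, 1176 and 102 in the class comparisons, against 1473, 1823 and 267 with it, and 36 against 20 within Slc30a3-positive cells. Unlabeled cells alone gave 739 and 1057. DESeq2 gave 930 between Slc30a3-positive and remaining cells, 1513 between labels (edgeR 540), 196 within Synpr-high and 706 within Slc30a3-positive cells. Leaving out a mouse gave 876 to 1065, 1077 to 1284, 73 to 180, 86 to 445, 0 to 1 and 1 to 2. Thinning gave 845 between labels and 1 and 62 within the classes, limma 887 between labels and 139 within Slc30a3-positive cells, where no filter gave 50, a Synpr cut of 400 CPM 8, an Slc30a3 cut of 50 CPM 11 and leaving out plate 12 3; no filter gave 1 within Synpr-high cells.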

Other observations

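The blindly sampled mouse, which may have had its own flow cell and read length, was above all projection mice in every class for B3galt1, B3gat1, Chst1, Chst2 and St3gal5 (5 of 69 tested members, 7.25%, against 10.2% of all genes tested) and below them for B4galnt4, B4galt2, Chst10, Galntl1 and St8sia3 (7.25% against 11.3%). B4galnt4, which adds terminal GalNAc, measured 8.27, 11.7 and 9.88 CPM in Synpr-high, Slc30a3-positive and remaining cells of this mouse and 19.0 to 37.5 CPM in the projection mice. The mouse and any flow cell of its own cannot be told apart.

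Among Slc30a3-positive cells with an RSC label, neither Chst9 nor B3gnt5 had a count in 22 cells, against 380 counts in 27 and 389 counts in 32 of 183 cells with an LEC label. A count of 0 in 22 cells allows a share of up to 13.6% (3 of 22). Neither passed in that comparison (adjusted p = 0.266 and 0.162, edgeR). Galntl1 averaged 39.7 ± 15.1 CPM in RSC-labeled and 92.7 ± 15.8 CPM in LEC-labeled Synpr-high cells, where no gene passed (adjusted p = 0.905, edgeR).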
